A study of Mus musculus with 12 samples.

Results

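Multipotent progenitors (MPP) lacking the transcription factor NFAT5 were compared with wild-type MPP after both had rebuilt the marrow of transplanted mice. The comparison used 6 of the study's 12 arrays, 3 from each genotype, chosen by population and genotype as the samples were labelled. The other 6 arrays held haematopoietic stem cells (HSC) of the same genotypes. The wild-type donors were Nfat5 +/+ Vav-Cre mice; those of the NFAT5-deficient cells were Nfat5 fl/fl Vav-Cre. Marrow of either, on a CD45.2 background, was given to irradiated wild-type recipients carrying CD45.1. At 13 weeks after transplantation, CD45.2+ MPP were sorted as CD48+CD150- cells and HSC as CD48-CD150+ cells, both within LSK cells, which lack lineage antigens and carry Sca-1 and Kit. Vav-Cre is active across blood cells, so deletion was not limited to progenitors, and the wild-type donors carried Cre as well. The labels leave out the sex and ages of donors and recipients and which arrays share an animal. P-values therefore measure the spread between these samples, which may be partly technical. Arrays are named by the sample numbers in their titles: wild-type cells have arrays 66, 67 and 75, and NFAT5-deficient cells arrays 64, 70 and 76.

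MPP lie just below HSC in the blood hierarchy. They divide more often, have lost most self-renewal, and feed the lymphoid and myeloid lineages. NFAT5, also called TonEBP, is a Rel-family factor that is not switched by calcineurin as the NFATc factors are. It is best known for inducing transporters and chaperones that protect cells in hypertonic surroundings, and it also acts in immune cells.

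All values are log2 intensities deposited by the authors, 1 per probe set and array, and a difference of 1 is a doubling of the signal. Of 22142 probe sets, 19527 had a gene symbol, which gave 19494 genes. Across genes, wild-type MPP arrays correlated with each other at 0.924 to 0.935, NFAT5-deficient MPP arrays at 0.948 to 0.952, and arrays of different genotype at 0.932 to 0.949. The middle 50% of genes spanned 2.36 to 2.54 log2 units on wild-type arrays and 2.49 to 2.64 on NFAT5-deficient arrays. No detection calls were used. Dim signal was gauged instead by 6 Y-linked genes, which read 3.19 to 5.16 on the MPP arrays, and a difference is not resolved in size where 1 group's mean lies in that range. With sex not given, the range stands for dim signal only if the cells did not express these genes, which was not tested. Sry was left out of this gauge after its values, 6.86 to 7.32, were seen.

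Nfat5 itself read 8.78, 8.85 and 8.12 on wild-type arrays 66, 67 and 75, and 7.63, 7.73 and 8.40 on NFAT5-deficient arrays 64, 70 and 76. NFAT5-deficient array 76 lay above wild-type array 75, so the genotypes overlapped. The difference was -0.66 (95% interval -1.45 to 0.12), and an exact permutation test (two-sided) gave p = 0.2, where 3 against 3 arrays cannot go below 0.1. In HSC the difference was -1.25 and the arrays did not overlap. Nothing in the labels places the single Nfat5 probe set inside or outside the floxed exons, so its signal does not measure deletion.

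Genes of the sort and of early progenitors overlapped between genotypes. Kit, the stem cell factor receptor, read 11.11 to 11.73 on wild-type and 10.95 to 11.38 on NFAT5-deficient arrays. Ptprc, which encodes the CD45 of the gate, read 8.56 to 10.47 and 8.55 to 10.94, a difference of 0.51 that ran from -0.02 (without NFAT5-deficient array 70) to 1.17 (without NFAT5-deficient array 64) with 1 array left out. Cd48, selected for in the gate, read 9.26 to 10.61 and 10.11 to 10.38, and Slamf1, which encodes the excluded CD150, read 6.11 to 6.37 and 6.06 to 6.90. Flt3, the cytokine receptor of lymphoid-primed progenitors, read 8.38 to 9.04 and 8.97 to 9.30. Dntt, the terminal transferase of early lymphoid cells, read 10.48 to 11.44 and 11.004 to 11.59. Satb1, Cd34 and Cd53 overlapped as well. Of the lineage antigens, Cd3e, Cd4, Cd8a and Itgam read between 5.54 and 6.86 on every MPP array and overlapped between genotypes. These values lay above the Y-linked range but not above that of Sry, which was left out of the gauge, so they do not establish expression. Ly6a, Ly6g and Ly76 were not analysed here.

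Across all annotated genes, 1 gene passed limma's test at an adjusted p under 0.05, Ms4a4c, and it fell. That is 0.00513% of the genes tested. At an adjusted p under 0.1 there were 7 (0.0359%), the others being Fcnb, Gbf1, Epb41l3, Rab2a, Evi5l and the olfactory receptor gene Olfr1019. At an unadjusted p under 0.05 there were 1043 genes (5.35%), where 974.7 would pass if no gene differed: 344 higher (1.76%) and 699 lower (3.59%). The 95% interval of a difference reached 0.47 to either side for the median gene. It was within 1 log2 unit of 0, both ends included, for 13484 genes.

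Counting arrays rather than p-values, all 3 NFAT5-deficient arrays lay above all 3 wild-type arrays for 741 genes (3.80%) and below them for 1723 (8.84%). Both directions together held 2464 genes (12.6%). Where a gene does not differ, 3 against 3 arrays separate one way or the other with a probability of 0.1, the smallest p of the exact permutation test. Arrays without overlap therefore describe a gene and are not a test result. A lower value was found for 11911 genes (61.1%) and a higher one for 7583 (38.9%), and the median difference was -0.07. This balance depended on level and on scaling. Among the 4874 dimmest genes the median difference was -0.08, with 92 genes not overlapping upward and 556 downward. Among the 4874 brightest the median was 0.05, with 346 upward and 213 downward. Of the genes that did not overlap, 30.1% were higher as deposited, 43.7% with the arrays centred on their medians and 38.8% after quantile normalization. Of those at an unadjusted p under 0.05, 33.0% were higher as deposited, 48.2% centred and 44.8% after quantile normalization. Leaving out 1 MPP array put the share of non-overlapping genes that were higher at 29.0% to 38.6%. These ends came without wild-type array 67 and without wild-type array 66, in that order. Array medians ran from 6.47 to 6.56 on wild-type and from 6.44 to 6.48 on NFAT5-deficient arrays. The spread of values on single arrays overlapped between genotypes. The part of array level or spread in this split was not tested. Large differences ran the other way: 399 genes were higher by 1 or more and 175 lower by 1 or more, of which 181 and 66 did not overlap.

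**Figure D1:**
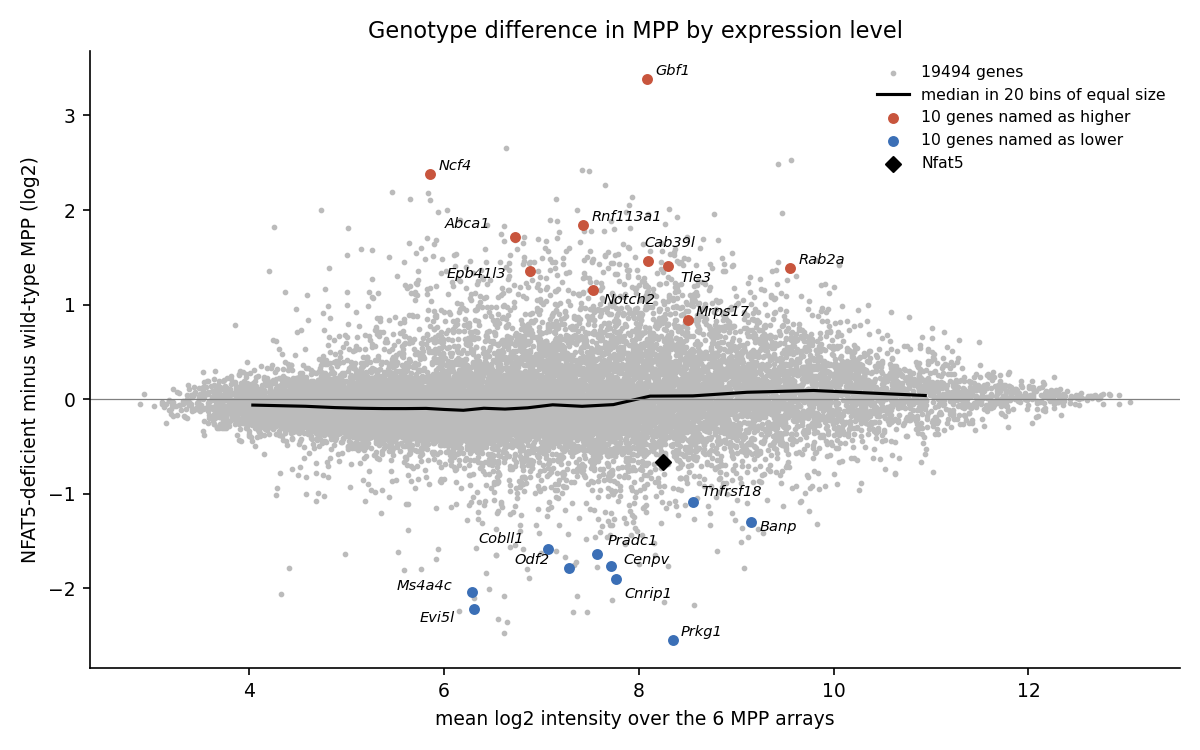
Each grey point is 1 of 19494 genes, with its mean log2 intensity over the 6 MPP arrays across and NFAT5-deficient minus wild-type up. The black line, the median in 20 bins of equal size, lies below 0 at low levels and above it at high levels; red and blue points are the genes named by rule, with Gbf1 at 3.39, Ms4a4c at -2.04 and Prkg1 at -2.55, and the black diamond is Nfat5 at -0.66.

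Ms4a4c encodes a small protein of the membrane-spanning 4A family, a set of tetraspanning membrane proteins of blood cells that includes the B cell antigen CD20. Its log2 intensity was 6.94, 7.70 and 7.27 on wild-type arrays 66, 67 and 75 and 5.48, 5.21 and 5.10 on NFAT5-deficient arrays 64, 70 and 76. All NFAT5-deficient arrays lay more than a log2 unit below the lowest wild-type array, and array 76 within the Y-linked range. The means were 7.30 ± 0.38 and 5.26 ± 0.20 (SD, n = 3 each), a difference of -2.04 (SE 0.20, 95% interval -2.47 to -1.61, limma adjusted p = 0.0124). The NFAT5-deficient level was 24.3% of the wild-type level. Since it lay just above the Y-linked range, the fall may be larger than measured. The call was lost with only the 6 MPP arrays in the fit (adjusted p = 0.431), and without wild-type MPP array 75 (adjusted p = 0.0986). Over the other alternatives that tested the gene its adjusted p ran from 0.00466 to 0.0446.

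The promoter of Ms4a4c is shown because it is the only gene that passed the test, and that of Gbf1 because its difference is the largest among the named genes. Both run from 250 bases before to 50 bases after the RefSeq start, on the plus strand of GRCm38.p6, at chr19:11407411-11407710 for Ms4a4c and chr19:46152308-46152607 for Gbf1. Capitals mark the core of the site that NFAT-type factors bind, GGAAA, searched on both strands, so that TTTCC is its reverse.
Ms4a4c: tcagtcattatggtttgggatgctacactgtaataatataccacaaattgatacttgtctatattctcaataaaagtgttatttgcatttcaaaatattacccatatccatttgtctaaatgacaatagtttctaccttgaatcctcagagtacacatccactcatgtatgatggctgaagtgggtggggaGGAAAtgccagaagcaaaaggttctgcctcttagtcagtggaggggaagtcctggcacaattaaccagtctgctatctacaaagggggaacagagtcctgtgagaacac
Gbf1: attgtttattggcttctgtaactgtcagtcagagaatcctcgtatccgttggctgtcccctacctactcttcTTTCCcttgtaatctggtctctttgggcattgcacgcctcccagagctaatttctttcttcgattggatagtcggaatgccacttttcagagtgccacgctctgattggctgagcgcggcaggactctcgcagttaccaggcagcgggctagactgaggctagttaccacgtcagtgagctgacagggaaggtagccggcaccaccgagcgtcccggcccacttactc
Each window held 1 match, 59 bases before the start in Ms4a4c and 178 bases before it in Gbf1. Neither held the longer TGGAAA, which contains the first motif. These matches are common: of 32851 promoters of the same length, 61.3% held GGAAA and 21.4% held TGGAAA. Of the 20 genes named below, 17 had promoters in the table. Those of the genes named as higher held GGAAA in 8 of 11 windows (72.7%), and those of the genes named as lower in 9 of 14 (64.3%). A match describes the letters only.

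Other Ms4a genes lay on both sides of 0. Of 18 members measured, 9 had a higher and 9 a lower value, with a median of -0.01 against -0.07 over all genes. Arrays did not overlap for Ms4a4c, for which the family was chosen, and Ms4a10 (-0.32), both lower (8.84% of all genes were). Ms4a4b, a close relative of Ms4a4c, differed by -0.47 and Ms4a4d by -0.27, with overlapping arrays. Ms4a3, a gene of granulocyte progenitors, differed by 0.90 and Ms4a7 by 1.24, also with overlapping arrays. Whether the probes tell these related genes apart was not tested.

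No gene passed the test upward, so the 10 named genes below are those of smallest p among genes whose arrays did not overlap and whose higher group mean was 7 or more. By that rule there were 506 candidates higher and 467 lower among 8026 genes. Gbf1, the exchange factor that activates ARF GTPases at the Golgi, read 6.61, 6.79 and 5.76 on wild-type arrays and 10.20, 9.57 and 9.55 on NFAT5-deficient arrays. The groups lay far apart, with a difference of 3.39 (SE 0.45, fold 10.5, limma adjusted p = 0.0624). Rab2a, a small GTPase of traffic between endoplasmic reticulum and Golgi, read 8.67, 8.77 and 9.14 against 10.30, 10.08 and 10.36. Its difference was 1.38 (SE 0.19, limma adjusted p = 0.0741), and both genotypes were tightly grouped. Abca1, which exports cholesterol from cells, read 5.67, 6.25 and 5.70 against 7.52, 8.01 and 7.25, a difference of 1.72 with adjusted p = 0.597.

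Of the genes at the membrane and in signalling, Epb41l3, a cytoskeletal linker of the band 4.1 family, read 6.44, 6.03 and 6.15 on wild-type and 7.25, 7.65 and 7.77 on NFAT5-deficient arrays. The difference was 1.35 (SE 0.18, limma adjusted p = 0.0624). Notch2, a receptor of lineage choice, read 6.99, 6.90 and 6.97 against 8.28, 8.27 and 7.77, a difference of 1.16. Tle3, a Groucho-type corepressor, read 7.86, 7.67 and 7.26 against 8.47, 9.46 and 9.09. Cab39l, a scaffold of the LKB1 kinase complex, read 6.79, 7.47 and 7.86 against 8.44, 8.83 and 9.21. The wild-type spread of Cab39l was wide beside that of Notch2, whose 3 wild-type arrays lay within 0.1 of each other.

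The remaining genes with higher values were Rnf113a1, a zinc finger gene linked to splicing and DNA repair (difference 1.84, adjusted p = 0.158), and Mrps17, a mitochondrial ribosomal protein gene (0.83). Ncf4, which encodes the p40-phox subunit of the phagocyte oxidase, read 5.07, 5.09 and 3.84 on wild-type and 6.37, 6.31 and 8.48 on NFAT5-deficient arrays. Its wild-type mean of 4.67 lay in the Y-linked range, so the size of its difference, 2.38, is not resolved. Adjusted p-values of these 10 genes ran from 0.0624 to 0.706.

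Among genes with lower values, Evi5l, which encodes a Rab GTPase-activating protein of the TBC family, followed Ms4a4c most closely in p among the named genes. It read 7.71, 6.78 and 7.77 on wild-type and 4.77, 4.87 and 5.94 on NFAT5-deficient arrays. The difference was -2.22 (SE 0.33, limma adjusted p = 0.0965), and with an NFAT5-deficient mean of 5.20, just above the Y-linked range, it may be larger. Prkg1, the cyclic GMP-dependent kinase, read 9.82, 10.36 and 8.69 against 7.16, 7.83 and 6.23, the largest difference downward among the named genes at -2.55. Both genotypes spread over more than 1.5 log2 units there.

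Of the others with lower values, Odf2 (-1.79) encodes a centriole protein and Cenpv (-1.77) a centromere protein. Tnfrsf18 (-1.09) encodes GITR, a costimulatory receptor of T cells. Banp (-1.30) encodes a nuclear matrix-associated transcription factor. Cnrip1 (-1.91) encodes a protein that binds the cannabinoid receptor, and Cobll1 (-1.59) and Pradc1 (-1.64) completed the set. Cnrip1 read 8.53, 8.71 and 8.93 on wild-type and 7.07, 7.02 and 6.36 on NFAT5-deficient arrays, and Banp 9.84, 9.48 and 10.10 against 8.32, 9.04 and 8.16. Adjusted p-values of these genes after Ms4a4c ran from 0.0965 to 0.802.

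**Figure D2:**
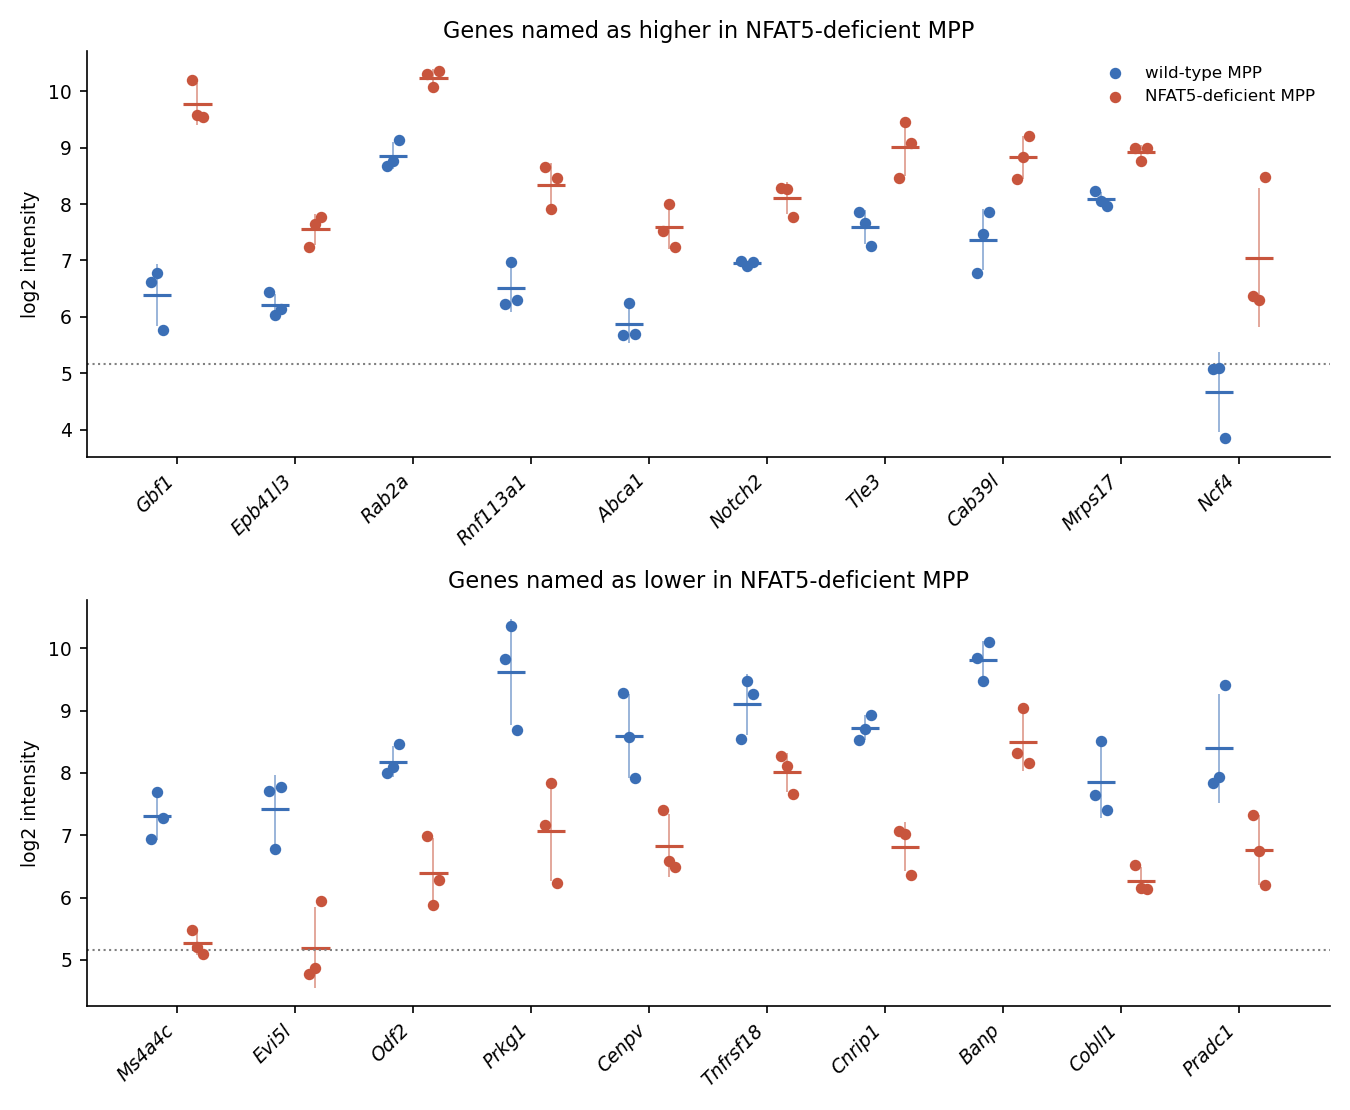
Log2 intensity of the named genes on each MPP array, wild-type in blue and NFAT5-deficient in red; horizontal lines are means, vertical lines SD (n = 3), and the dotted line at 5.16 is the top of the Y-linked range. Arrays do not overlap for any gene shown because the rule asked for that, and the NFAT5-deficient points of Ms4a4c (5.48, 5.21 and 5.10) sit near the dotted line.

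The osmotic stress genes, which include those NFAT5 is best known to control, held 0 calls among the members measured. Of 12 listed, Slc5a3 and Akr1b3 were not matched by symbol, so these targets were not tested. Of 10 osmotic stress genes measured, 8 had a lower and 2 a higher value (61.1% and 38.9% over all genes). The median difference was -0.17, against -0.07 over all genes. Slc6a6, the taurine transporter and a textbook NFAT5 target, read 9.85, 9.26 and 9.57 on wild-type and 8.96, 8.73 and 8.79 on NFAT5-deficient arrays. Its arrays did not overlap, with a difference of -0.74 (95% interval -1.29 to -0.18, limma adjusted p = 0.896). In HSC the difference of Slc6a6 was 0.05. Hspa1a, the inducible HSP70 gene, read 7.41, 7.44 and 7.35 against 7.15, 7.18 and 7.03, also without overlap (8.84% of all genes were lower without overlap). The betaine transporter gene Slc6a12 (-0.30), Hspa1b (-0.18), Smpd3 (-0.16), Aqp1 (-0.15), Nos2 (-0.17) and the amino acid transporter gene Slc38a2 (0.00 after rounding, slightly lower) overlapped. The kinase gene Sgk1 differed by 0.67, through array 70 at 8.41 beside 6.46 and 6.09 on the other NFAT5-deficient arrays, and the chaperone gene Hspa4l by 0.85.

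Cells also answer osmotic change through the WNK kinases, their partner kinases SPAK and OSR1, cation-chloride cotransporters and LRRC8 anion channels. Of 12 such genes, 5 had a higher and 7 a lower value, 0 passed, and the median was -0.12. Leaving out 1 array turned the sign of this median: it was 0.07 without wild-type array 66 and -0.30 without wild-type array 67. Stk39, which encodes SPAK, read 10.24, 10.37 and 9.31 on wild-type and 8.95, 7.12 and 8.50 on NFAT5-deficient arrays, a difference of -1.78 (limma adjusted p = 0.896). Slc12a4, the cotransporter KCC1, read 5.72, 6.63 and 5.003 against 4.92, 4.54 and 4.94, so its NFAT5-deficient mean lay in the Y-linked range. The channel subunit gene Lrrc8d (-0.51) also did not overlap (8.84% of all genes were lower without overlap). Oxsr1 (0.41), Wnk1 (0.05) and Lrrc8a (0.21), the obligate channel subunit, overlapped. The calcium-regulated NFAT factors and calcineurin genes (11 measured, median 0.07) held 1 member without overlap, Nfatc4 (-0.23).

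**Figure D3:**
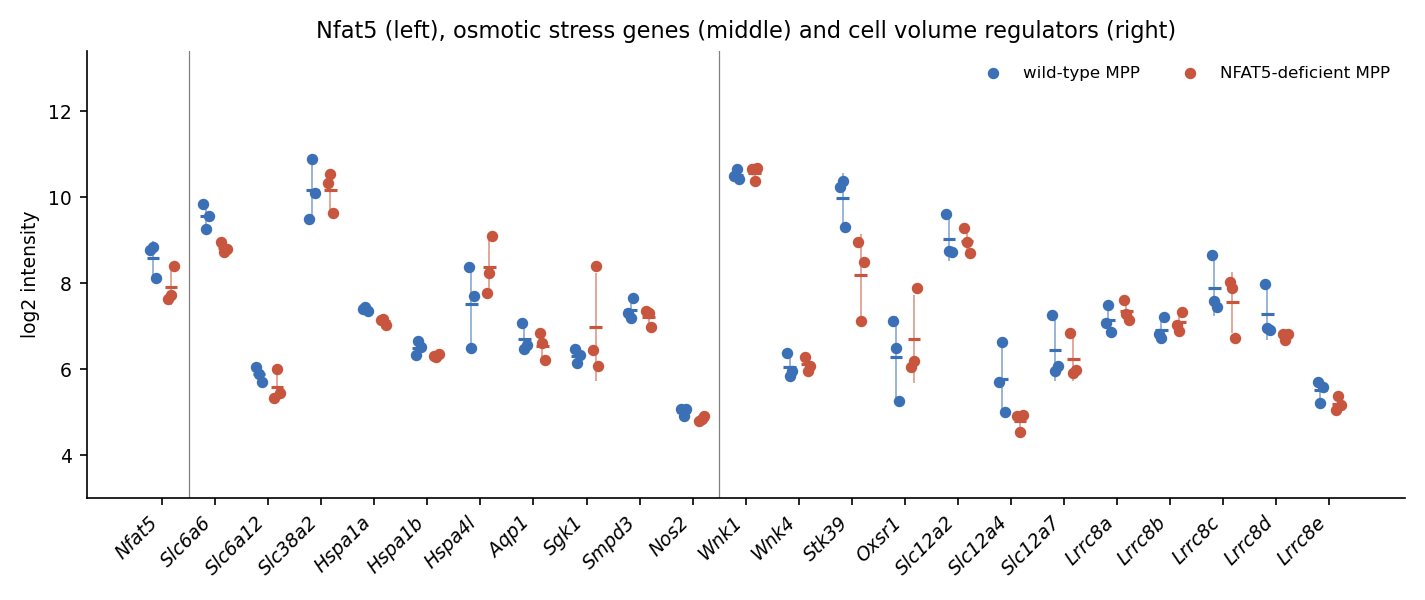
Log2 intensity on each MPP array (wild-type blue, NFAT5-deficient red; lines are mean and SD, n = 3) for Nfat5, 10 osmotic stress genes and 12 cell volume regulators. Slc6a6, Hspa1a, Stk39, Slc12a4 and Lrrc8d are the members of the 2 lists whose arrays do not overlap, all lower. Over all genes, 8.84% did not overlap downward and 3.80% upward. Nfat5 overlaps through array 76 at 8.40.

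In all, 42 gene lists covering 629 measured genes were examined, and 0 members passed the test (limma). The smallest adjusted p among them was 0.0624 for Fcnb, then 0.597 for Abca1 and 0.699 for Hk2, and every other member was at 0.871 or above. Of the 629 genes, 30 did not overlap upward (4.77%, against 3.80% of all genes) and 43 downward (6.84%, against 8.84%). Counts without overlap in single lists are to be read beside the same shares of all genes. Their median difference was -0.02. Medians of the lists ran from -0.19 to 0.25, and many were too near 0 to have a settled sign: with 1 MPP array left out, 31 (without wild-type array 66) to 38 (without NFAT5-deficient array 70) of the 42 kept theirs. List members that the naming rule did not take were chosen after their values were seen.

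**Figure D4:**
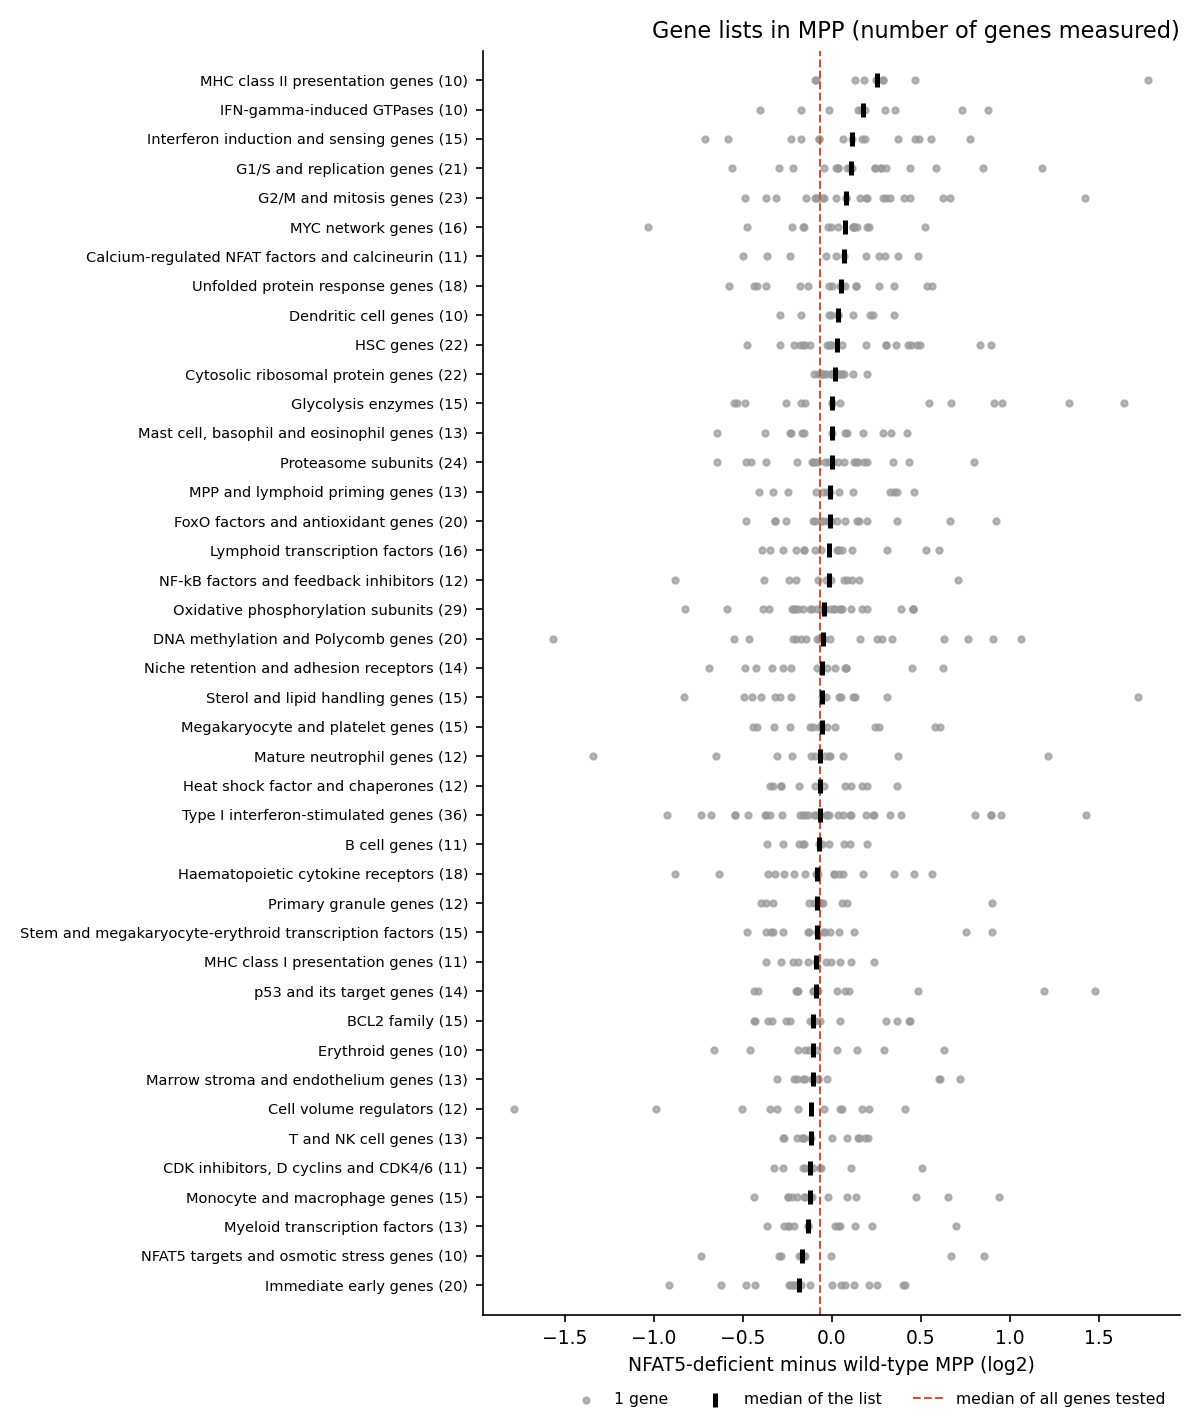
Difference between NFAT5-deficient and wild-type MPP (log2) for each measured gene (grey) of the 42 lists, with each list's median (black) and the median of all genes, -0.07 (dashed). List medians lie within -0.19 (immediate early genes) and 0.25 (MHC class II presentation genes), and 0 of the genes shown passed the test.

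Identity genes of stem and progenitor cells were near balance. HSC genes (22 measured) had 11 higher and 11 lower values and a median of 0.03, with Robo4, an endothelial-type receptor gene, as the only member not overlapping (-0.29). MPP and lymphoid priming genes (13) had 6 higher and 7 lower values and a median of -0.01. In that list Notch1, the receptor that starts T cell fate, read 7.33, 7.11 and 7.25 on wild-type and 6.65, 6.89 and 6.94 on NFAT5-deficient arrays, opposite in sign to Notch2. Blnk, a B cell signalling adaptor gene, was also lower without overlap (-0.33), and Il7r, the interleukin-7 receptor gene, differed by 0.46 with overlap.

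Among transcription factors of the lineages, lymphoid factors (16 measured, median -0.02) held 3 members lower and 1 higher without overlap (8.84% and 3.80% over all genes). Lef1, a WNT pathway factor, read 5.97, 5.81 and 5.98 against 5.54, 5.54 and 5.51 (-0.39), Sox4 differed by -0.16 and Pax5 by -0.15, and Tcf12, an E protein gene, by 0.60. Myeloid factors (13, median -0.13) held 1 not overlapping, Klf5 (-0.27), whose values all lay in the Y-linked range. Among stem and megakaryocyte-erythroid factors (15, median -0.08), Nfe2, the platelet-forming factor, read 7.81, 7.72 and 8.09 on wild-type and 8.68, 8.97 and 8.68 on NFAT5-deficient arrays (0.90, adjusted p = 0.888). Gfi1b, a repressor needed for megakaryocytes and red cells, was higher too (0.75), while Zfpm1 (-0.34) and Ldb1 (-0.27), a GATA1 cofactor and a complex scaffold, were lower. Platelet and megakaryocyte genes (15, median -0.06) held 0 without overlap. Erythroid genes (10, median -0.10) held 2, Ermap (-0.46) and the dim Rhag (-0.66), both lower (8.84% of all genes were).

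Immune response lists did not share a direction. Over all genes, 38.9% had higher and 61.1% lower values. Type I interferon-stimulated genes (36 measured) had 14 higher and 22 lower values and a median of -0.07, the median of all genes. Parp9 (0.89) and Rtp4 (0.81) were higher without overlap. Oas2, a sensor of double-stranded RNA, read 8.08, 6.94 and 5.60 on wild-type and 8.29, 7.98 and 8.63 on NFAT5-deficient arrays, overlapping through wild-type array 66. Of 15 genes of interferon induction and sensing (median 0.11), 9 had higher and 6 lower values. The receptor gene Ifnar1 (0.56) and the adaptor gene Mavs (0.47) were higher without overlap. The 10 IFN-gamma-induced GTPases (7 higher and 3 lower, median 0.18) all overlapped. Array means of the class II presentation genes (10, median 0.25) ran from 7.87 to 7.97 on wild-type and from 8.10 to 8.40 on NFAT5-deficient arrays. That separation was not tested. Of the class II genes, 8 had higher and 2 lower values. H2-DMb2, a peptide exchange chaperone gene, carried the largest of these, at 6.61, 6.48 and 6.57 against 8.48, 9.12 and 7.38 (1.78, adjusted p = 0.899), while the class II gene H2-Aa differed by -0.10 and H2-Ab1 by 0.29. Class I presentation genes (11, with 3 higher and 8 lower, median -0.09) held B2m (-0.03) and the chaperone gene Calr (-0.37), both lower without overlap.

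Among inflammatory feedback and immediate early genes, more members had lower than higher values, as did all genes. Nfkbiz, an inducible nuclear IκB gene, read 8.37, 8.10 and 8.72 on wild-type and 7.38, 7.83 and 7.33 on NFAT5-deficient arrays (-0.88), and Nfkbie also did not overlap (-0.38), in a list of 12 with a median of -0.02. Of 20 immediate early genes, 13 had lower values and the median was -0.19. That median was 0.03 without wild-type array 66, whose mean over the list was 7.02 beside 6.19 and 6.43 on the other wild-type arrays. Egr3 (-0.43) was lower and Ier2 (0.40) higher without overlap. In HSC the median of the immediate early list was 0.01.

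Niche and cytokine receptors had medians of -0.05 (14 measured) and -0.08 (18). Cd44, the hyaluronan receptor, read 9.08, 9.37 and 9.49 on wild-type and 10.01, 9.79 and 10.01 on NFAT5-deficient arrays (0.62), and in HSC the difference was 1.02. Selplg, the selectin ligand PSGL-1, differed by -0.69 with overlap. The TNF receptor gene Tnfrsf1b was lower without overlap (-0.36).

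The cell cycle lists did not run one way. Of 21 G1/S and replication genes, 17 were higher and 4 lower (38.9% and 61.1% over all genes), with a median of 0.11 against -0.07 over all genes, and 0 passed. Array means of the list ran from 8.91 to 9.03 on wild-type and from 9.15 to 9.18 on NFAT5-deficient arrays, without overlap. That separation was not tested. These array means lay above 7.88, where the 4874 brightest of all genes begin, and those genes had a median of 0.05. The part of level in the shift of this list was not tested. Rrm2, the small subunit of ribonucleotide reductase, read 7.83, 7.65 and 8.94 against 8.83, 9.25 and 9.89 (1.18), overlapping through wild-type array 75. The members that did not overlap ran the other way, E2f1 at -0.56 and the licensing factor gene Cdt1 at -0.30. Of 23 G2/M genes, which all overlapped, 14 were higher and 9 lower, with a median of 0.08 that was -0.03 without NFAT5-deficient array 76. Of 11 CDK inhibitor, D cyclin and CDK4/6 genes, 2 were higher and 9 lower (median -0.12), and Ccnd2 (-0.28) did not overlap. In HSC the medians of the G1/S and G2/M lists were 0.29 and -0.15.

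Stress and survival genes split within their lists. Of 14 p53 network genes (median -0.09), Ccng1, cyclin G1, read 7.83, 7.98 and 8.09 on wild-type and 8.77, 9.70 and 9.01 on NFAT5-deficient arrays (1.19, adjusted p = 0.871). Pmaip1, which encodes the death-promoting protein NOXA, read 6.08, 6.22 and 6.13 against 5.68, 5.76 and 5.68 (-0.44, adjusted p = 0.871), and the stress gene Sesn2 differed by -0.41. These 3 targets of one factor therefore lay on opposite sides without overlap. BCL2 family genes (15, median -0.10) included Bok (-0.43) and Bad (0.30) without overlap besides Pmaip1. Medians were -0.07 for chaperones (12), 0.05 for unfolded protein response genes (18) and -0.01 for FoxO and antioxidant genes (20), against -0.07 over all genes. In the last list Txnrd1, thioredoxin reductase, differed by 0.66 with overlap, and Prdx1, a peroxiredoxin gene, by -0.48 without.

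Of the metabolic lists, glycolysis enzymes and glucose transporters (15, median 0.00) held 3 members higher without overlap (3.80% of all genes were). Hk2, the inducible hexokinase, read 5.26, 5.19 and 5.46 on wild-type and 6.84, 6.06 and 7.01 on NFAT5-deficient arrays (1.33, SE 0.29, limma adjusted p = 0.699). Ldha, lactate dehydrogenase, read 7.78, 7.55 and 7.74 against 9.19, 8.66 and 7.94 (0.91), and the glucose transporter gene Slc2a3 4.60, 5.46 and 5.16 against 6.21, 7.66 and 6.28, from a dim wild-type level. Pgam1 was lower without overlap (-0.26), and Pkm (-0.49) and Pfkm (-0.55) overlapped. Oxidative phosphorylation subunits (29, median -0.05) held Ndufb8 (-0.59) and Ndufb10 (0.39) without overlap, and sterol and lipid genes (15, median -0.06) Abca1 and Lss (-0.83), the lanosterol synthase gene.

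Growth and chromatin genes were level in the main. Ribosomal protein genes (22, median 0.02) had 1 member not overlapping, Rps20 at 0.03, and MYC network genes (16, median 0.08) had 3, Npm1 (0.13), Mga (0.12) and Fbl (-0.16), all of small size. Proteasome subunits (24, median 0.00) held Psmc4 (0.80), Psma6 (0.20) and Psmc1 (0.18) higher and Psmb4 (-0.37) lower without overlap (3.80% and 8.84% over all genes). In DNA methylation and Polycomb genes (20, median -0.05), Cbx8 read 7.03, 6.39 and 8.95 on wild-type and 6.03, 5.60 and 6.05 on NFAT5-deficient arrays (-1.56, adjusted p = 0.888). Bmi1, a core subunit of the same repressive complex and a stem cell maintenance factor, read 6.99, 7.38 and 8.28 against 8.24, 8.44 and 9.17 (1.06), overlapping through wild-type array 75.

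Markers of other marrow cells did not separate the genotypes as groups. Primary granule genes, which progenitors themselves express, had a median of -0.08 (12 measured), with Srgn (-0.33) and Plac8 (-0.13) lower without overlap. Mature neutrophil genes had a median of -0.07 (12). Within wild-type MPP, Ngp read 9.58, 9.28 and 6.01, a wider spread than between genotypes, against 8.04, 6.66 and 6.15 on NFAT5-deficient arrays. Fcnb, a secreted lectin of granulocyte precursors in the same list, read 5.35, 5.07 and 4.92 against 6.30, 6.62 and 6.08 (1.22, SE 0.15, limma adjusted p = 0.0624), from a wild-type mean in the Y-linked range. Array means of the neutrophil list ran from 6.25 to 7.07 on wild-type and from 6.39 to 6.90 on NFAT5-deficient arrays, and its part in the Fcnb difference was not tested. Medians were -0.12 for monocyte genes (15), 0.03 for dendritic cell genes (10), -0.07 for B cell genes (11), -0.12 for T and NK cell genes (13), 0.00 for mast cell, basophil and eosinophil genes (13) and -0.11 for stroma and endothelium genes (13). Of these, Fcer1a (-0.65) and Prss34 (-0.23), Cx3cr1 (-0.25), Siglech (0.23), Pax5 (-0.15), Cd3g (0.19), Pecam1 (0.61) and Kdr (-0.16) did not overlap. With bulk RNA, fewer cells of a type and less RNA per cell cannot be told apart.

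Whether a genotype difference in MPP differed from that in HSC was tested as an interaction over the 12 arrays. At an adjusted p under 0.05, 0 genes passed in limma (0% of 19494; 0 also with robust eBayes, no trend, centring, quantile normalization and array weights), with 817 at an unadjusted p under 0.05 (4.19%), of them 381 higher in MPP (1.95%). The smallest adjusted p was 0.0549, for Gbf1. The count was 1, Gbf1, with the array number as a block, with genes of a mean over 6 and without NFAT5-deficient HSC array 64. It was 1 through other genes without NFAT5-deficient MPP array 70 (Kdm8) and without wild-type HSC array 75 (Rpusd4). Its wild-type HSC arrays read 9.997, 9.29 and 9.35 and its NFAT5-deficient HSC arrays 6.28, 7.73 and 7.83, a difference of -2.26 where MPP gave 3.39. The interaction was 5.65 (SE 0.63). Wild-type HSC and NFAT5-deficient MPP were thus the high groups, and wild-type MPP and NFAT5-deficient HSC the low ones.

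Ms4a4c was dim in HSC of both genotypes, at 5.43, 5.28 and 5.10 on wild-type and 5.09, 5.23 and 4.80 on NFAT5-deficient arrays, a range that NFAT5-deficient MPP came close to. The interaction was -1.81 with an adjusted p of 0.303, so the fall was not shown to be particular to MPP. Rab2a likewise read 10.15, 10.10 and 10.56 in wild-type HSC and 9.99, 10.12 and 10.11 in NFAT5-deficient HSC. Only the wild-type MPP arrays were lower, and the interaction was 1.58 with an adjusted p of 0.561.

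Of the other genes with the smallest interaction p, several had opposite differences in MPP and HSC. Adk, adenosine kinase, differed by -1.26 in MPP and 1.73 in HSC, and Stk39 by -1.78 and 2.51. Zc3h7a, an RNA-binding zinc finger gene, differed by -0.74 and 1.04, Nup160, a nuclear pore subunit gene, by 1.15 and -1.63, and Postn, periostin, by 2.19 and -0.73, with a wild-type MPP mean in the Y-linked range. Prkg1 differed by -2.55 and 1.14, with overlapping HSC arrays. Adjusted p-values of these interactions ran from 0.204 for Fcnb to 0.912 for Prkg1, Gbf1 apart. Of the 10 genes named as higher in MPP, the HSC arrays did not overlap for 4, with 1 in the same direction, Epb41l3 (0.33), and 3 in the opposite one. Of the 10 named as lower, 1 had HSC arrays that did not overlap, Pradc1, in the opposite direction. Over all genes in HSC, 3.55% did not overlap upward and 6.61% downward.

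**Figure D5:**
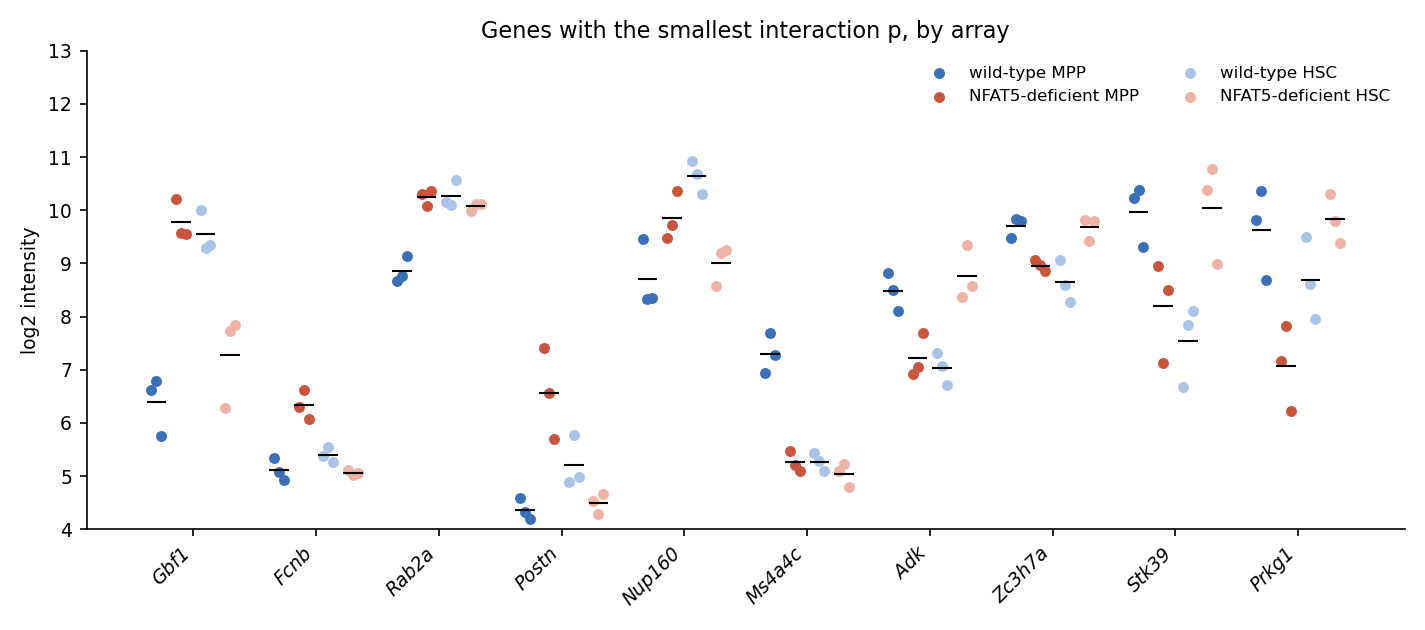
Log2 intensity on each of the 12 arrays for the 10 genes with the smallest interaction p, 5 in each direction; black lines are group means (n = 3). For Gbf1, wild-type MPP (6.61, 6.79 and 5.76) and NFAT5-deficient HSC are low and the other groups high, whereas for Ms4a4c wild-type MPP alone is high. With all 12 arrays, all 19494 genes and no block, 0 of these interactions passed the test at an adjusted p under 0.05.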

How the data were processed

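The authors deposited 1 table of log2 intensities, per the labels' protocols from 300 pg of total RNA per sample amplified and biotin-labelled with NuGEN kits; the log2 scale was read from the values, 2.51 to 13.28. RMA and limma appear in the submitters' processing notes, with no version or role. The log2 values were used as deposited, without further normalization. For arrays, their number limits the precision. Symbols came from the platform annotation; 2615 probe sets (11.8%) without one were kept out of named tests, and for 33 genes with several probe sets the brightest stood for the gene. Arrays were fitted with limma 3.58.1 in R 4.3.3, with a mean for each of 4 groups over 12 arrays and a variance prior that follows intensity (eBayes trend). Benjamini-Hochberg adjustment ran over 19494 genes, with calls at an adjusted p under 0.05. Fold values and percentages of the wild-type level are log2 differences converted back to the linear scale.

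Named genes were Nfat5, up to 10 called per direction, filled by smallest p among genes whose arrays did not overlap and whose higher mean was 7 or more, up to 4 members per list by smallest p, the sort markers, and the 5 smallest interaction p-values per direction. Unnamed models, olfactory and vomeronasal receptors and small RNA genes were left out of the largest changes. Members and lists were chosen with earlier results of these data known. The alternatives tried were each array left out, a block on the array number, only the 6 MPP arrays, centring, quantile normalization, array weights, averaged probe sets, genes with a mean over 6, eBayes with no trend or robust, and an adjusted p under 0.1; a fit of all probe sets was added after seeing the data. No scan dates were used, so no batch was tested. Promoters are RefSeq's, GRCm38.p6. Drawings used Python and matplotlib.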

Additional observations from a re-analysis of the deposited data

Results flagged for a closer look

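For 12 of 194 named genes (Nfat5 included, Y-linked genes left out), all 3 NFAT5-deficient arrays lay on one side of the wild-type arrays in MPP and on the other side in HSC; over all genes, 81 (0.416%) did so, and 156 (0.800%) lay on the same side in both. Some of the 12 were named for a small interaction p. Others were named because their MPP arrays did not overlap, or for a small MPP p within a list. Their share is therefore set in part by the choice and cannot be weighed against that of all genes. The difference between the populations (MPP effect minus HSC effect, log2) was positive for Gbf1 (5.65), Postn (2.92), Nup160 (2.78), the corepressor gene Tle3 (2.21), Fcnb (1.55), the endothelial adhesion gene Pecam1 (1.47), the mitochondrial ribosomal gene Mrps17 (1.04) and the T cell receptor subunit gene Cd3g (0.46, dim on every MPP array). It was negative for Stk39 (-4.29), Adk (-2.99), Pradc1 (-2.49) and Zc3h7a (-1.78). In limma's interaction test over all genes 0 of these passed an adjusted p of 0.05, and the smallest was 0.0549, for Gbf1.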

How the results depend on the processing

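The count of genes called in MPP was 1, and 1 also without the trend, with robust eBayes, with the mean of probe sets and with all probe sets. It was 0 with genes of a mean over 6 (12471 tested, Ms4a4c not among them) and 0 with only the 6 MPP arrays, 3 with centred arrays (Epb41l3, Fcnb and Ms4a4c), 2 after quantile normalization (Fcnb and Ms4a4c), 6 with array weights and 7 at an adjusted p under 0.1. Leaving out 1 array gave 0 (without wild-type MPP array 75) to 4 (without wild-type MPP array 66 or NFAT5-deficient MPP array 76), with 3 without NFAT5-deficient MPP array 70 and 2 without NFAT5-deficient HSC array 64 or wild-type HSC array 66. With the array number as a replicate block (consensus correlation 0.0454) the count was 1 in MPP and 1, Gbf1, in the interaction. Of 6 same-numbered pairs of MPP and HSC arrays, 0 deviated together at a correlation over 0.1, and the main fit took no pairing. For numbers 64, 66 and 67 the same-numbered correlation (0.016, 0.062 and 0.064) was above those with other numbers of the genotype, and for 70, 75 and 76 it was not. Whether the numbers pair the arrays is therefore not settled. The labels do not say whether such arrays share an animal, and the 2 MPP groups share no number. The interaction count was 0, and 1, Gbf1, with genes of a mean over 6 and at an adjusted p under 0.1, and 0 to 1 with an array left out: Gbf1 without NFAT5-deficient HSC array 64, Kdm8 without NFAT5-deficient MPP array 70 and Rpusd4 without wild-type HSC array 75. Genes not overlapping upward numbered 741, and 1370 to 1644 with an MPP array left out, where 2 against 3 arrays overlap less often; those downward numbered 1723, 923 with genes of a mean over 6 and 2609 to 3864 with an MPP array left out. The Nfat5 difference kept its direction throughout, from -0.90 to -0.52 with an array left out. Of 200 named genes (Nfat5 apart, Y-linked genes included), 0 to 6 changed sign when 1 array was left out, and 1 did so with centred arrays. Medians of the 42 lists were less stable in sign: 31 to 38 kept it with an MPP array left out, 35 after quantile normalization, 37 with genes of a mean over 6, 38 with centred arrays, and 42 with array weights, with the mean of probe sets and with the block. With 1 array left out, the other 2 of that group carry its mean. Dim levels, without detection calls, limit the size of large differences.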
